A study of Gallus gallus with 6 samples.

Results

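The autophagy machinery examined here comprised 35 gene names. Most cover the formation of the autophagosome, from the kinase complex that starts it to the receptors that bring cargo. EPG5 and TFEB were grouped apart, as fusion and transcription. A gene was matched to a locus of the RNA-seq table when one of the names of that locus, split at semicolons, equalled its symbol. By this rule 32 of the 35 genes were found among 17340 loci, while ATG2A, MAP1LC3B and EPG5 matched no name and were not analysed here. The libraries came from primary lens epithelial cell cultures of White Leghorn chick embryos at embryonic day 10, grown on laminin in serum-containing medium. In all, 3 libraries were made from cells given 1 mM dimethyloxalylglycine (DMOG) for 4 h and 3 from untreated cells, so a single dose and a single time were sampled. DMOG inhibits the prolyl hydroxylases that mark HIF1α for degradation and was used to activate HIF1α. It also inhibits other oxoglutarate-dependent dioxygenases, and it is a chemical stand-in for low oxygen rather than low oxygen itself.

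Autophagy encloses cytoplasm and organelles in a membrane and delivers them to the lysosome. A kinase complex around ULK1 or ULK2 starts the process, a lipid kinase complex around PIK3C3 and BECN1 marks the site with phosphatidylinositol 3-phosphate, lipid transfer and scrambling proteins enlarge the membrane, and ubiquitin-like conjugation attaches proteins of the ATG8 family (LC3 and GABARAP) to it. In the lens, epithelial cells lose mitochondria, endoplasmic reticulum and nuclei as they become transparent fiber cells. The comparison gives the RNA levels of the listed autophagy genes with and without DMOG, and organelle removal itself was not measured.

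Expression was given as FPKM (fragments scaled to transcript length and to the mapped fragments of the library) and compared as log2(FPKM + 0.5) with limma at 9816 loci, those whose mean over the 6 libraries reached 1 FPKM. All 32 matched genes passed this filter. A gene was called at the limits of the study, which were a log2 fold change of 0.60 or more up or down together with p below 0.05 before adjustment. The study applied these limits to p-values from edgeR. Here they were applied to limma, so the counts and shares are not those of the study. At these limits 2.84% of all tested loci were higher and 4.97% were lower in DMOG-treated cells, and at an adjusted p under 0.05 the shares were 0.163% and 0.0306%. The split of 279 higher and 488 lower loci became 418 and 317 with libraries scaled to a common median, and 410 and 320 with quantile normalization. The median log2 fold change of all tested loci was -0.13, so the middle of the distribution lay slightly below 0. Small RNA loci held 24.8% to 37.4% of the FPKM in DMOG libraries and 24.0% to 28.7% in untreated libraries. DMOG library 3 had the highest of these shares and the most loci listed at 0 (35.9%). The treatment was visible in EGLN3, a HIF prolyl hydroxylase and established HIF1α target, at 57.2, 54.0 and 47.6 FPKM with DMOG, against 1.35, 2.06 and 1.87 FPKM without it. BNIP3L, the mitophagy receptor that the study used as its control gene, measured 70.2, 65.0 and 32.6 FPKM with DMOG, against 19.1, 25.3 and 26.9 FPKM in untreated cells. The log2 fold change of EGLN3 was 4.57 (limma adjusted p 0.00044). That of BNIP3L was 1.15 and passed the limits of the study, but its limma adjusted p was 0.329. Lens markers were present, with 13 of 15 listed genes matched and all 13 above a mean of 1 FPKM, and their summed FPKM was 883 to 1302 with DMOG and 974 to 1421 without it. Of the erythroid markers matched, 5 of 7, the globins among them, are listed at 0 in every library, and the summed FPKM was 8.12 to 11.6 with DMOG and 10.0 to 12.9 without it. Nearly all of that sum came from ALAS2 (mean 10.8 FPKM), which was present in every library. The mesenchymal sum was 9.97 to 20.3 FPKM with DMOG and 14.1 to 22.4 without it, with 2 of 8 markers at 0 throughout. Sums of retinal markers (1.28 to 5.12 FPKM with DMOG, 1.10 to 2.64 without it, 3 of 8 at 0) and macrophage markers (5.25 to 8.56 FPKM with DMOG, 8.24 to 10.6 without it, 1 of 3 at 0) also overlapped between conditions, and no marker of the 5 lists passed the limits. Most of the macrophage sum came from a locus that joins PTPRC with NEK7 (mean 7.34 FPKM). The FPKM of that locus cannot be divided between the joined genes.

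GABARAPL1, an ATG8 family gene, was the autophagy gene that was higher in DMOG-treated cells, and the kinase gene ULK2 and the protease gene ATG4B were lower. At the limits of the study 1 of the 32 genes was higher (GABARAPL1, 3.13% of those tested) and 2 were lower (ULK2 and ATG4B, 6.25%), where 2.84% and 4.97% of all tested loci were called. These counts are near the background. After adjustment in limma 0 of the 32 were below 0.05. The lowest adjusted p was 0.410. The DMOG libraries were all above the untreated ones for 1 gene and all below for 5 (15.6%), where the shares over all tested loci were 4.47% and 11.4%. The median log2 fold change of the 32 genes was -0.13, the same as that of all tested loci, and 71.9% of the 32 values were below 0, against 63.7% of all tested loci. In these bulk RNA samples, fewer cells of a type and less RNA per cell cannot be told apart.

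**Figure D1:**
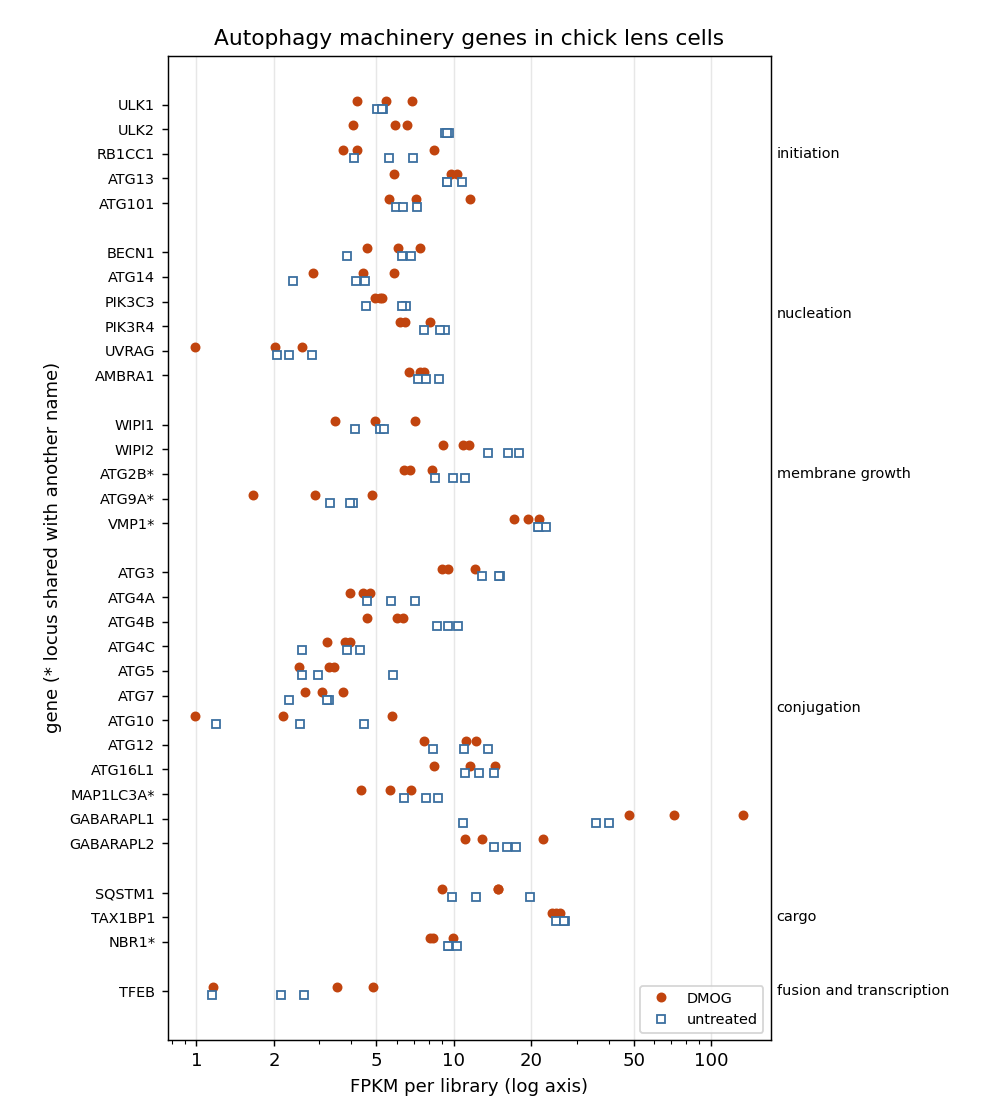
FPKM of the 32 matched autophagy genes in each library (log axis), grouped by step, with DMOG libraries as filled circles above the open squares of the untreated libraries. GABARAPL1 is the only gene whose DMOG libraries, at 48.1 to 133 FPKM, all lie to the right of its untreated libraries. Of all tested loci, 4.47% had their libraries in this order.

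Among the levels, GABARAPL1 was the most abundant of the 32 genes in all 3 DMOG libraries and in untreated libraries 1 and 2, and was the eighth in untreated library 3. TAX1BP1, a cargo receptor, and the locus of VMP1, a membrane protein of the endoplasmic reticulum, followed at means over the 6 libraries of 25.6 and 20.6 FPKM. In untreated cells the first place of GABARAPL1 (28.9 ± 15.8 FPKM, SD, n = 3) over TAX1BP1 (26.3 ± 1.21 FPKM) was within the spread of its libraries. The median gene of the list had a mean of 7.39 FPKM, and UVRAG was the lowest at 2.12 FPKM. Over the 32 genes, the SD of the libraries on the log2 scale had a median of 0.32 with DMOG and 0.19 without it. The SD was larger with DMOG for 59.4% of the 32 genes and for 61.2% of all tested loci.

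GABARAPL1 belongs to the GABARAP branch of the ATG8 family, whose members are attached to the growing membrane and bind cargo receptors. It measured 133, 48.1 and 71.6 FPKM in DMOG libraries 1, 2 and 3, against 35.8, 40.1 and 10.9 FPKM in untreated libraries 1, 2 and 3. All DMOG libraries were above all untreated libraries, with DMOG library 1 far above and untreated library 3 far below the others of their condition. The means were 84.4 ± 44.0 FPKM with DMOG and 28.9 ± 15.8 FPKM without it (SD, n = 3 each), a ratio of 2.92. The log2 fold change was 1.60 (SE 0.55, 95% interval 0.33 to 2.88, limma adjusted p 0.457), and 85 of the 9816 tested loci had a value at least as high. The size rested on single libraries: it was 1.02 when untreated library 3 was left out, and when DMOG library 1 was left out it was 1.21 and no longer passed the p limit (limma unadjusted p 0.0746).

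GABARAPL2, the other measured member of the GABARAP branch, did not follow it. It measured 12.8, 11.0 and 22.2 FPKM with DMOG, against 17.4, 14.3 and 16.1 FPKM in untreated cells. DMOG library 3 was above all untreated libraries and DMOG libraries 1 and 2 below them, so the conditions overlapped, and the log2 fold change was -0.11 (95% interval -0.76 to 0.53), and -0.40 without DMOG library 3. The locus that joins MAP1LC3A, an LC3 branch member, with the metalloproteinase gene MMP24 measured 5.66, 4.35 and 6.85 FPKM with DMOG, against 7.77, 8.65 and 6.39 FPKM without it. Its log2 fold change was -0.42 (95% interval -0.99 to 0.16), and its FPKM cannot be divided between the joined genes.

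The share of GABARAPL1 in the summed FPKM of the 32 genes is unaffected by a scaling factor per library. GABARAPL1 held 35.2%, 17.9% and 23.0% of that sum in DMOG libraries 1, 2 and 3, against 11.6%, 12.7% and 4.08% in untreated libraries 1, 2 and 3. All DMOG libraries were above all untreated libraries. The other 31 genes summed to 246, 221 and 240 FPKM with DMOG, against 274, 276 and 256 FPKM without it. This sum of unscaled FPKM was lower in every DMOG library than in any untreated library, and it carries the shift of all tested loci. Whether it stays so after scaling was not tested. The share was chosen after the values were seen, and shares and sums are given with no test.

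**Figure D2:**
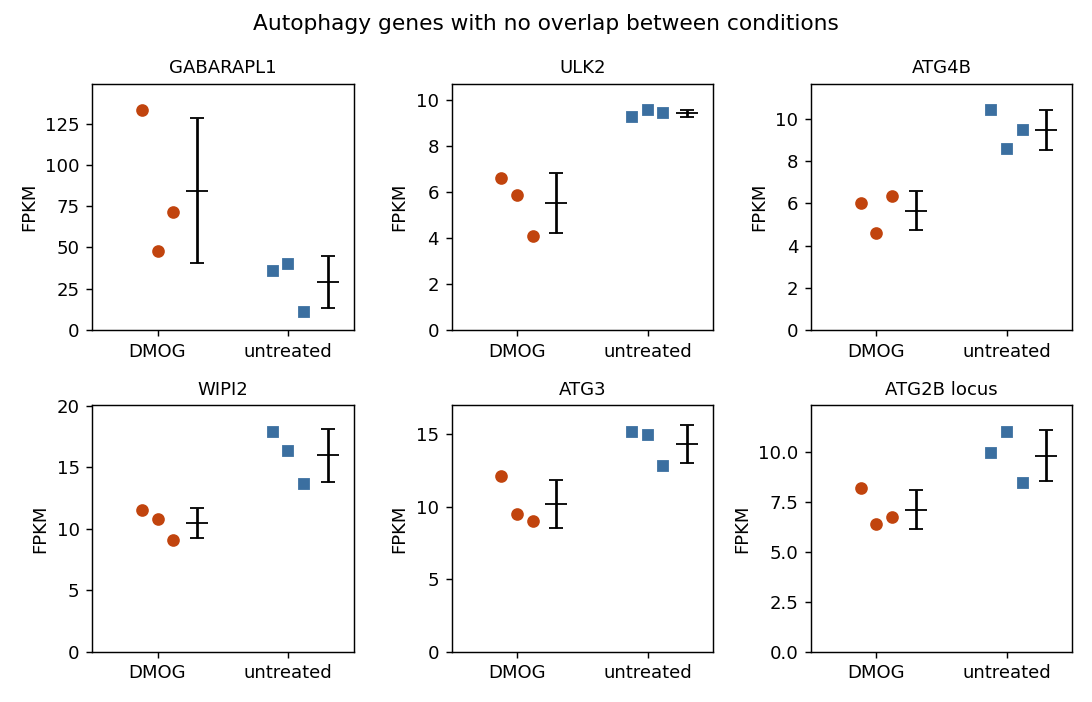
FPKM of the 6 autophagy genes whose DMOG libraries do not overlap the untreated libraries, with 1 point per library and the mean ± SD (n = 3) as bars. Of the 32 genes, 1 was separate above and 5 below, where the shares over all tested loci were 4.47% and 11.4%. GABARAPL1 averages 84.4 FPKM with DMOG and 28.9 without it, and the other genes, ATG2B at a locus that joins a microRNA, are lower with DMOG.

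At initiation, ULK2 was lower with DMOG while ULK1 was not. Both encode the serine/threonine kinase of the initiation complex, which RB1CC1 scaffolds and which ATG13 and ATG101 join as adaptors. ULK2 measured 6.59, 5.89 and 4.07 FPKM with DMOG, against 9.27, 9.57 and 9.42 FPKM without it. The untreated libraries lay close together and all above the DMOG libraries. The means were 5.52 ± 1.30 FPKM with DMOG and 9.42 ± 0.150 FPKM without it (SD, n = 3 each), a log2 fold change of -0.75 (SE 0.23, 95% interval -1.29 to -0.20, limma adjusted p 0.420). Without DMOG library 3 the value was -0.56, short of the fold limit.

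ULK1 measured 4.20, 5.47 and 6.87 FPKM with DMOG, against 5.04, 5.32 and 5.27 FPKM without it. The untreated libraries fell inside the range of the DMOG libraries, and the log2 fold change was 0.05 (95% interval -0.52 to 0.62). Within each library, the log2 ratio of ULK2 to ULK1 was 0.59, 0.10 and -0.69 with DMOG, against 0.82, 0.79 and 0.78 in untreated cells. The difference was -0.80 (SE 0.37), with every DMOG library below every untreated one, and the two-sided exact permutation test gave p = 0.1, the smallest that 3 against 3 libraries allow (0.30 adjusted over 6 pairs). The difference was -0.45 without DMOG library 3.

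ATG13, the most abundant gene of the initiation complex, measured 9.79, 10.3 and 5.84 FPKM with DMOG, against 10.8, 9.43 and 9.38 FPKM without it. DMOG library 3 was the lowest and the other DMOG libraries lay among the untreated ones (log2 fold change -0.22, 95% interval -0.81 to 0.38, and 0.0293 without DMOG library 3). RB1CC1 and ATG101 had log2 fold changes of -0.08 and 0.24, and neither passed the limits. ATG101 reached 11.6 FPKM in DMOG library 3, the highest of its 6 values, and its log2 fold change was -0.0337 without that library.

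At nucleation none of the 6 genes passed the limits, and the log2 fold changes ranged from -0.34 to 0.21. PIK3R4, the regulatory subunit of the lipid kinase, was the most abundant, at 8.06, 6.44 and 6.18 FPKM with DMOG, against 7.63, 9.26 and 8.81 FPKM without it. DMOG library 1 lay above untreated library 1, so the conditions overlapped, and the log2 fold change was -0.30 (95% interval -0.79 to 0.19). The catalytic subunit PIK3C3 and the core subunit BECN1 had values of -0.15 and 0.10. AMBRA1, a regulator of BECN1, had -0.12, with a 95% interval of -0.58 to 0.34 that lay inside the fold limits.

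ATG14 and UVRAG bind BECN1 in separate complexes, ATG14 at the forming autophagosome and UVRAG on endosomes. ATG14 measured 4.42, 2.84 and 5.86 FPKM with DMOG, against 4.18, 2.37 and 4.53 FPKM without it. UVRAG measured 2.57, 0.990 and 2.02 FPKM with DMOG, against 2.29, 2.05 and 2.82 FPKM without it. For both genes the conditions overlapped. The log2 ratio of UVRAG to ATG14 was -0.68, -1.16 and -1.34 with DMOG, against -0.75, -0.17 and -0.60 without it, a difference of -0.55 (SE 0.26, exact permutation p = 0.2, adjusted 0.30).

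Membrane growth had the lowest median of the steps with several genes, with no gene past the limits. Of the 5 matched genes 4 had a log2 fold change below 0, with a median of -0.33, and none was called (median of all tested loci -0.13). The median was the value of the locus that joins ATG9A with ABCB6, where the conditions overlapped (95% interval -1.18 to 0.52). The summed FPKM of this step was 46.8, 45.0 and 43.9 with DMOG, against 58.4, 57.7 and 52.8 without it. The summed FPKM of the initiation genes was also separate, at 34.6, 33.0 and 32.1 with DMOG, against 36.6, 37.7 and 35.4 without it, and the sums of the other steps overlapped. Means of the initiation sum were 33.2 FPKM with DMOG and 36.5 FPKM without it. Those of ULK2 were 5.52 and 9.42 FPKM, so ULK2 alone differed by more than the sum. The sums of both steps also carry the shift of all tested loci, because they are of unscaled FPKM. The median of log2(FPKM + 0.5) over the tested loci was 2.47 in DMOG library 3 and 2.81 in untreated library 3. Whether the sums stay separate after scaling was not tested. WIPI2, which binds phosphatidylinositol 3-phosphate and brings ATG16L1 to the membrane, measured 11.5, 10.8 and 9.09 FPKM with DMOG, against 17.9, 16.3 and 13.6 FPKM in untreated cells. The conditions were separate, and the value of -0.58 on the log2 scale (SE 0.20, 95% interval -1.04 to -0.12, limma adjusted p 0.452) missed the fold limit by a small margin. It passed at -0.65 when DMOG library 1 was left out, at -0.61 for DMOG library 2 and at -0.69 for untreated library 3. The other omissions missed both limits, at -0.49 for DMOG library 3, -0.50 for untreated library 1 and -0.56 for untreated library 2. Median scaling gave -0.46 (limma unadjusted p 0.0556).

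WIPI1, its paralog, measured 7.06, 3.45 and 4.95 FPKM with DMOG, against 5.15, 4.14 and 5.37 FPKM without it. The untreated libraries lay within the range of the DMOG libraries (log2 fold change 0.03, 95% interval -0.66 to 0.71). The log2 ratio of WIPI2 to WIPI1 was 0.67, 1.52 and 0.82 with DMOG, against 1.70, 1.86 and 1.27 without it. The difference of -0.61 (SE 0.32) came with an overlap between DMOG library 2 and untreated library 3 (exact permutation p = 0.2, adjusted 0.30).

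The ATG2B locus, whose name includes the microRNA gga-mir-6590, measured 8.24, 6.41 and 6.75 FPKM with DMOG, against 9.96, 11.0 and 8.49 FPKM without it. ATG2B transfers lipids to the growing membrane. The conditions did not overlap in unscaled FPKM, but DMOG library 1 came close to untreated library 3. The log2 fold change was -0.44 (95% interval -0.93 to 0.05), and -0.31 with median scaling. The locus that joins ATG9A, a lipid scramblase, with ABCB6 measured 2.90, 4.80 and 1.66 FPKM with DMOG, against 4.05, 3.31 and 3.95 FPKM without it. DMOG libraries lay on both sides of the untreated ones. The VMP1 locus, which includes gga-mir-21, measured 17.2, 19.5 and 21.4 FPKM with DMOG, against 21.4, 22.9 and 21.3 FPKM without it. DMOG library 3 lay level with untreated libraries 1 and 3, for a log2 fold change of -0.18 (95% interval -0.57 to 0.22).

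**Figure D3:**
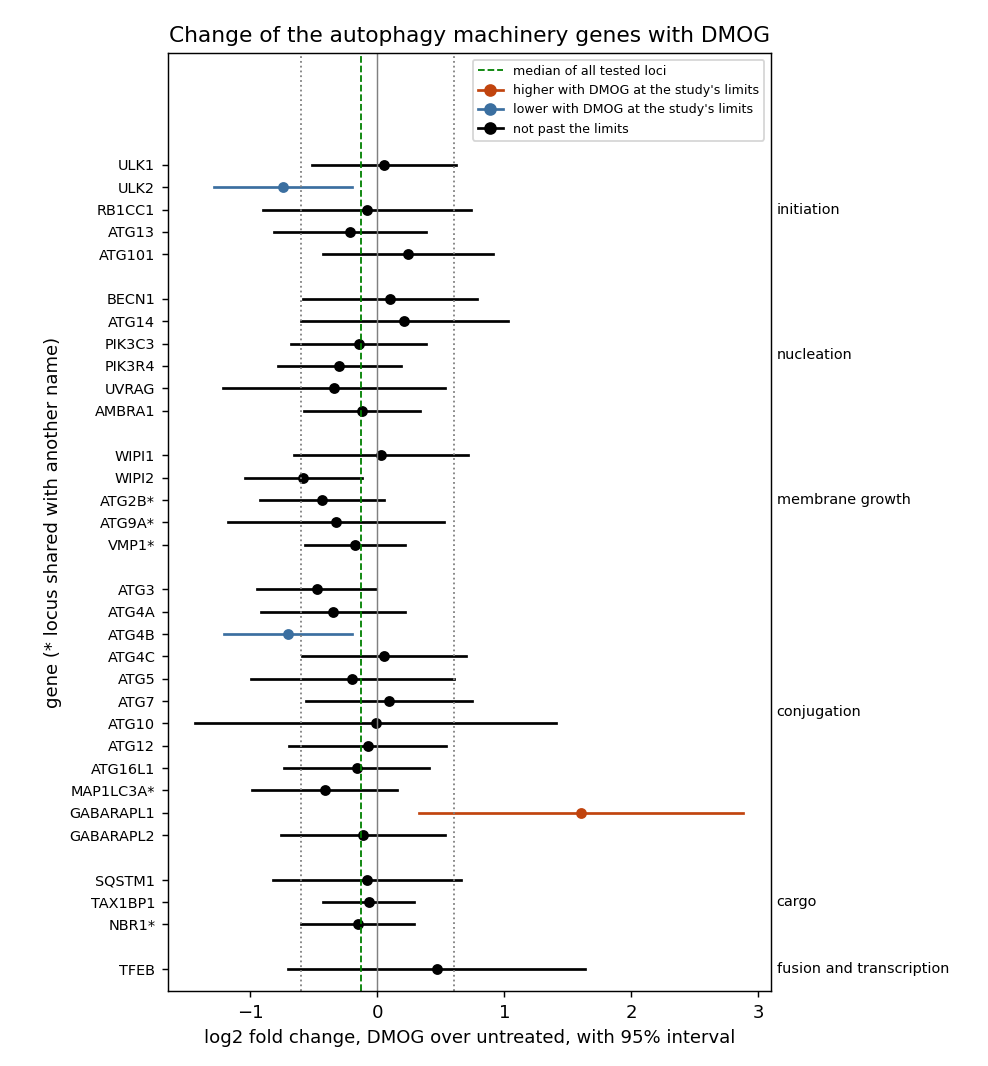
Log2 fold change (DMOG over untreated) of each autophagy gene with its 95% interval from limma, dotted lines at the fold limits of 0.60 and a dashed line at the median of all tested loci, -0.13. GABARAPL1 stands at 1.60, and ULK2 and ATG4B, the genes called lower, at -0.75 and -0.71.

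In the conjugation step ATG4B was lower, beside the higher GABARAPL1. ATG4B is a cysteine protease that exposes the end of ATG8 proteins for conjugation and later cuts them from the membrane. It measured 6.04, 4.59 and 6.34 FPKM with DMOG, against 10.4, 8.57 and 9.46 FPKM without it. Every DMOG library was below every untreated library. The means were 5.66 ± 0.936 FPKM with DMOG and 9.49 ± 0.930 FPKM without it (SD, n = 3 each), a log2 fold change of -0.71 (SE 0.22, 95% interval -1.21 to -0.20, limma adjusted p 0.410). The value was -0.58 under median scaling and -0.57 without DMOG library 2, both short of the fold limit.

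ATG4A, another protease of this family, measured 3.96, 4.44 and 4.73 FPKM with DMOG, against 4.59, 7.07 and 5.68 FPKM without it. Only untreated library 1 lay among the DMOG libraries, and the log2 fold change was -0.35 (95% interval -0.91 to 0.22). The log2 ratio of ATG4B to ATG4A was 0.55, 0.04 and 0.39 with DMOG, against 1.10, 0.26 and 0.69 without it, a difference of -0.36 (SE 0.29, exact permutation p = 0.3, adjusted 0.36). The size rested on single libraries, at -0.15 without untreated library 1, -0.21 without DMOG library 2 and -0.57 without untreated library 2. ATG4C, of the same family, had a log2 fold change of 0.05 (95% interval -0.59 to 0.69).

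ATG3 is the E2-like enzyme that passes ATG8 proteins to the membrane lipid. It measured 12.1, 9.47 and 8.98 FPKM with DMOG, against 15.2, 15.0 and 12.8 FPKM without it. The conditions did not overlap in unscaled FPKM, and the log2 fold change was -0.48 (95% interval -0.95 to -0.01, limma adjusted p 0.546), short of the fold limit. With median scaling the value was -0.36 (limma unadjusted p 0.111). Without DMOG library 3 it was -0.40 (limma unadjusted p 0.112), and without DMOG library 1 it passed at -0.605. ATG7, the E1-like enzyme that acts before it, had 0.09 (95% interval -0.56 to 0.74).

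ATG10, the E2-like enzyme for ATG12, was the lowest gene of the step and the most variable. It measured 5.74, 2.16 and 0.990 FPKM with DMOG, against 1.19, 4.48 and 2.53 FPKM without it. The values spread as widely within each condition as between them, and the interval, -1.43 to 1.40, holds large changes in both directions. ATG12, ATG5 and ATG16L1, which together form the complex that directs ATG8 conjugation, had log2 fold changes of -0.08, -0.20 and -0.16, and the conditions overlapped for each.

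Within the ATG8 family, the log2 ratio of GABARAPL2 to GABARAPL1 was -3.33, -2.08 and -1.67 with DMOG, against -1.02, -1.45 and 0.54 without it. Every DMOG library was below every untreated library. The difference was -1.72 (SE 0.79), with the smallest exact permutation p that the design allows, 0.1 (adjusted 0.30). It was -1.12 without untreated library 3 and -1.23 without DMOG library 1. Of the 8 pairs listed, 6 could be formed, because ATG2A and MAP1LC3B were not matched. No adjusted p for a pair was under 0.30.

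The cargo receptors did not pass the limits. TAX1BP1 measured 24.9, 24.2 and 25.8 FPKM with DMOG, against 24.9, 27.1 and 26.9 FPKM without it. DMOG and untreated libraries overlapped within a narrow range, and the log2 fold change was -0.07 (95% interval -0.43 to 0.29). SQSTM1, known as p62, measured 14.9, 14.9 and 8.99 FPKM with DMOG, against 19.8, 9.85 and 12.2 FPKM without it, a log2 fold change of -0.08 (95% interval -0.82 to 0.66). The highest and the lowest of its libraries were an untreated and a DMOG library, and the others were mixed. The NBR1 locus, whose name includes the Rfam small RNA RF02153, measured 8.07, 8.27 and 9.95 FPKM with DMOG, against 9.57, 9.47 and 10.3 FPKM without it (log2 fold change -0.15, 95% interval -0.60 to 0.29). The log2 ratio of NBR1 to SQSTM1 was -0.84, -0.81 and 0.14 with DMOG, against -1.01, -0.05 and -0.23 without it, a difference of -0.07 (SE 0.44, exact permutation p = 1) whose sign changed when DMOG library 1 or 2 or untreated library 2 or 3 was left out.

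TFEB, a transcription factor for lysosomal and autophagy genes, measured 3.52, 4.85 and 1.16 FPKM with DMOG, against 2.13, 1.15 and 2.62 FPKM in untreated cells. DMOG libraries 1 and 2 were above all untreated libraries and DMOG library 3 among the lowest. The log2 fold change was 0.47 (SE 0.50, 95% interval -0.70 to 1.64, limma adjusted p 0.808). Without DMOG library 3 it was 0.96 and passed the limits, and without DMOG library 2 it was 0.12.

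Most of the intervals were too wide to show that a gene did not change. The 95% interval lay wholly between -0.60 and 0.60 for 4 of the 32 genes (AMBRA1, VMP1, TAX1BP1 and NBR1), against 865 of the 9816 tested loci, and wholly between -1 and 1 for 23 of the 32, against 4211 of the 9816. The half-width of the interval had a median of 0.61 on the log2 scale for the 32 genes and 0.76 for all tested loci.

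**Figure D4:**
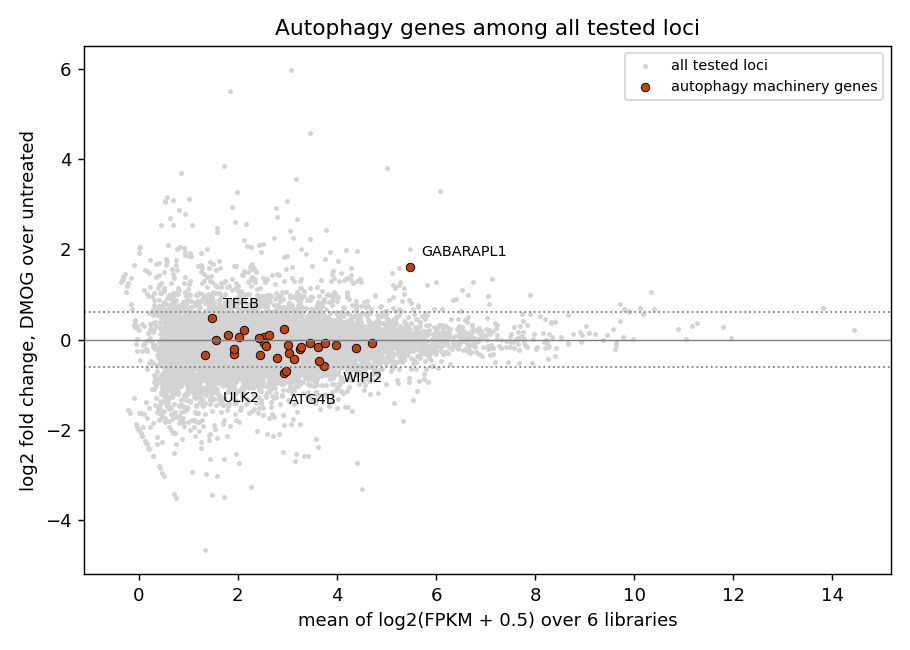
Log2 fold change (DMOG over untreated) against the mean of log2(FPKM + 0.5) over the 6 libraries for the 9816 tested loci (grey) and the 32 autophagy genes (red), with dotted lines at the fold limits. Apart from GABARAPL1 at 1.60, ULK2 at -0.75 and ATG4B at -0.71, the autophagy genes lie between the limits.

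Further genes of the pathway, among them other machinery genes and genes for regulation, receptors and fusion with the lysosome, gave no call. Of 34 such genes, 24 were matched and 22 were tested, and 0 passed the limits of the study. The log2 fold changes ranged from -0.99 (TMEM41B, limma unadjusted p 0.0876) to 0.47 (VPS41). VPS11, at -0.84 with every DMOG library below every untreated one, passed the fold limit but narrowly missed the p limit (limma unadjusted p 0.0512). In limma 0 of the 22 had an adjusted p under 0.05. Their lowest limma adjusted p was 0.557. Their median log2 fold change was -0.17, and 18 of the 22 values were below 0, where 63.7% of all tested loci were. The DMOG libraries were all below the untreated ones for 4 of the 22 (18.2%), where the share over all tested loci was 11.4%, and all above for 0. ATG9B and RUBCN were under the filter, at means of 0.172 and 0.545 FPKM.

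**Figure D5:**
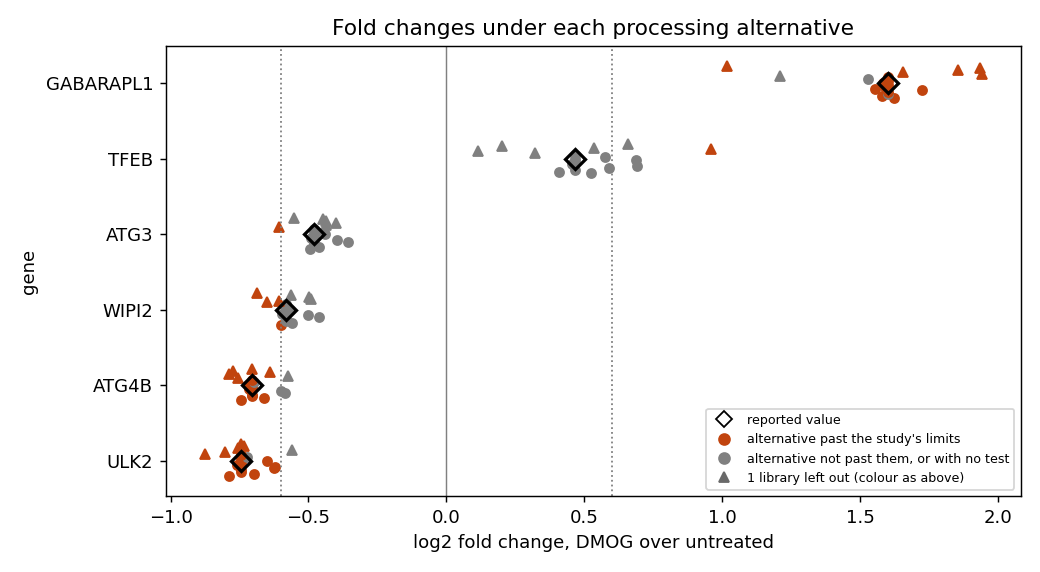
Log2 fold change (DMOG over untreated) of the 6 genes that passed the limits in at least 1 setting, with the reported value as a diamond, each processing alternative as a circle and each fit without 1 library as a triangle, red where the limits were passed. GABARAPL1 ranges from 1.02 to 1.94, ULK2 from -0.88 to -0.56 and ATG4B from -0.79 to -0.57.

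Across the alternatives that give a test, 17 for each of these genes and 16 for TFEB, ULK2 passed the limits in 16, GABARAPL1 in 15 and ATG4B in 14. WIPI2 passed in 4 of its 17, ATG3 in 1 of 17 and TFEB in 1 of 16. The adjusted p of GABARAPL1 ranged from 0.375 to 0.783 over these alternatives, that of ULK2 from 0.314 to 0.844 and that of ATG4B from 0.310 to 0.867. The signs of these 6 genes did not change in any of the alternatives.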

How the data were processed

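Per the methods, total RNA from biological triplicates of treated and untreated primary lens cells was made into stranded libraries and sequenced as read pairs. The authors used Cutadapt for trimming, Bowtie2 and HISAT2 for mapping to galGal6, and StringTie with gffcompare for transcript assembly. Some loci join several names (5 of the 32 here). The authors made FPKM per library, deposited with 2 decimals. The table also holds the authors' ratio of mean FPKM, its log2 value and unadjusted p-values from edgeR, which the authors computed and which were not used here. Tool versions are not given in the sources used here.

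For the comparison, log2(FPKM + 0.5) was fitted in limma 3.58.1 under R 4.3.3, by treatment alone and with a mean-variance trend, where the mean FPKM reached 1, and adjusted by Benjamini-Hochberg over all 9816 tested loci, of which 892 join names. Within-library ratios were compared by two-sided exact permutation in scipy 1.17.1 (Python 3.11.15). Depth is unknown, and precision is given by the spread between replicates. Ratios of low values between libraries were binned to look for steps of whole reads. No limit was set for what counts as a step, so the bins cannot show whether such steps exist. No libraries of a condition held the same values (Pearson correlations of log2 values 0.810 to 0.899).

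The genes and lists were chosen with earlier results of these data known. Values per library are given for genes that passed the limits or did not overlap, for the highest and lowest gene of each step and for listed pairs. The alternatives were pseudocounts of 0.1 and 1, a filter left out or raised to a mean of 5 FPKM, median scaling, quantile normalization, FPKM rescaled without small RNA loci, no variance trend, array weights, a replicate block, the log2 ratio of mean FPKM, single-name loci alone, and omission of each library in turn. Sequences and genome positions were not used here.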

Additional observations from a re-analysis of the deposited data

How the results depend on the processing

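The number of tested loci lower with DMOG was 488 and changed to 231 with a mean of at least 5 FPKM (where 183 were higher, against 279), to 317 with median scaling and to 320 with quantile normalization. With these scalings 418 and 410 loci were higher. Leaving out each library gave 216 to 407 higher and 328 to 768 lower loci, the most lower ones without DMOG library 1. Autophagy genes called higher numbered 0 with no filter on low values (GABARAPL1, limma unadjusted p 0.0626), and 0 to 2 when each library was left out, 0 without DMOG library 1 and 2 without DMOG library 3. Those called lower numbered 1 with median scaling and with quantile normalization (ATG4B lost, at -0.58 and -0.598), and 1 to 4 when each library was left out, 4 without DMOG library 1 and 1 without DMOG library 3. Further pathway genes called lower numbered 1 (VPS11) with a pseudocount of 1, without small RNA loci, with array weights and with the replicate block, and 0 to 1 when each library was left out, 1 without DMOG library 1 (TMEM41B, -1.39) and 1 without DMOG library 2 (VPS11, -1.09). Called higher was 1 (VPS41) with array weights, and 0 to 1 when each library was left out, 1 without untreated library 3. The median log2 fold change of the autophagy genes was -0.0120 with median scaling and -0.0537 with quantile normalization, and -0.191 to -0.0649 when each library was left out, nearest to 0 without DMOG library 2. The causes were not tested.

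Signs of values that were near 0 changed as follows. With median scaling the log2 fold change was 0.0399 for RB1CC1, 0.0024 for AMBRA1, 0.11 for ATG10, 0.0466 for ATG12, 0.0097 for GABARAPL2, 0.0390 for SQSTM1 and 0.0521 for TAX1BP1. With quantile normalization it was 0.0708 for RB1CC1, 0.20 for ATG10, 0.0111 for ATG12 and 0.0018 for SQSTM1. With array weights it was -0.0423 for ULK1, 0.0361 for RB1CC1 and 0.34 for ATG10, and with a pseudocount of 1 it was 0.00022 for ATG10, which was 0.0991 by the log2 ratio of mean FPKM. When each library was left out, the sign changed within ranges of -0.56 to 0.47 for ATG10, -0.0337 to 0.46 for ATG101, -0.25 to 0.12 for ATG12, -0.36 to 0.0293 for ATG13, -0.0427 to 0.46 for ATG14, -0.34 to 0.0362 for ATG16L1, -0.14 to 0.19 for ATG4C, -0.40 to 0.12 for ATG5, -0.0528 to 0.19 for ATG7, -0.14 to 0.26 for BECN1, -0.40 to 0.0865 for GABARAPL2, -0.41 to 0.12 for RB1CC1, -0.29 to 0.19 for SQSTM1, -0.11 to 0.22 for ULK1 and -0.21 to 0.26 for WIPI1. The difference in the log2 ratio of NBR1 to SQSTM1 ranged from -0.39 to 0.12, and those of the other pairs kept their sign.

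Same-numbered libraries did not deviate together (correlations of deviations from the group means -0.110, -0.166 and -0.232). With 3 libraries per condition these correlations cannot show whether same-numbered libraries share a cell preparation, and the labels do not say. With the replicate block 225 loci were higher and 371 lower, and 1 autophagy gene was higher and 2 were lower.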
